A study of Rattus norvegicus with 6 samples.

Results

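No gene of a set of 10 hepatic stellate cell and collagen matrix genes passed the test between livers of rats given phenolphthalein and livers of rats given corn oil. The 10 genes followed here were chosen by name, with earlier results of these data known. They are the collagen chains Col1a1, Col1a2 and Col3a1, the small proteoglycans Dcn and Lum and the growth factor receptor Pdgfrb. The others are the muscle-type filament genes Des and Acta2, the protease inhibitor Timp1 and the retinol-esterifying enzyme Lrat. The set was read by 15 of the 61657 array probes other than controls. It makes up 10 of the 15284 genes the array names through RefSeq. The mean was lower with phenolphthalein for each of the 9 genes bright enough to test, as it was for 48.2% of all genes tested, and 0 of the 9 passed limma's test over all genes (0.0612% of all genes passed, 0.00875% lower and 0.0525% higher). Col1a1 and Dcn had the lowest log2 fold changes of the set.

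Hepatic stellate cells lie between the sinusoidal endothelium and the hepatocytes and store most of the body's vitamin A as retinyl esters. After injury they can lose these stores, divide in answer to platelet-derived growth factor, take up a contractile, muscle-like state and lay down fibrillar collagen, a course driven in large part by transforming growth factor beta. Portal fibroblasts and vascular smooth muscle share many of these genes, so none of the 10 marks a stellate cell alone in whole liver.

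All 6 animals were male Sprague-Dawley rats, bought at 5 weeks of age, and each gave 1 liver RNA sample and 1 array. The 3 control animals received corn oil. The 3 treated animals received phenolphthalein, a pH indicator formerly used in laxatives. Its daily dose was 1000 mg per kg. The treatment protocol gives 9 weeks of treatment, while the design text dates the measurement to 28 days, and no genetic change is named for either group. The question was how the treatment altered transcript levels in the liver.

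The arrays are 1-colour oligonucleotide arrays of Cy3-labelled RNA, and the number of arrays limits the precision. Between 62.1% and 65.1% of the probes were well above background on an array, 0 spots were saturated, and 0 spots of the 15 probes were marked as outliers. The labelled tissue was borne out by 10 of 10 hepatocyte markers well above background on all 6 arrays. Each group had a slide and a scan of its own, corn oil slide 1 and phenolphthalein slide 2, so an effect of the slide or scan cannot be told apart from one of the treatment. In RNA of whole liver, fewer cells of a type and less RNA per cell cannot be told apart either.

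Of the 10 genes, 6 had an upstream sequence in the RefSeq table (assembly GRCr8). The stretches of Col1a2 and Acta2 are shown because these are the collagen whose probes differed most in their log2 fold change and the gene that stands for the contractile state. They run 5′ to 3′ in the direction of the gene, and capitals mark the motifs searched on both strands.
Col1a2: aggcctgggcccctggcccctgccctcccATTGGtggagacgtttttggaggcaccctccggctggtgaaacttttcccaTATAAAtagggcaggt
Acta2: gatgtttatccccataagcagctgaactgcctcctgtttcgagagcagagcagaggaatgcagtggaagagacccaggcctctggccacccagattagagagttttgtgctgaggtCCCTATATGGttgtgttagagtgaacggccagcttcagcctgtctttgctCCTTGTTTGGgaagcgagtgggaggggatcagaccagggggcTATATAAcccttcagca

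The Col1a2 stretch lies at chr4:33518307-33518402, plus strand. It holds CCAAT on the opposite strand (capitals ATTGG), the letters bound by the CCAAT-binding factor that many collagen promoters use, and the TATA-box letters TATAAA. The former lie 221 to 217 and the latter 170 to 165 bases upstream of the start of the gene. The Acta2 stretch lies at chr1:241172529-241172753, minus strand. Its longer capitals are 2 CArG boxes, the element through which serum response factor drives smooth muscle genes, taken here as CC and GG around 6 bases of which at least 5 are A or T. The last capitals are TATATAA, another form of the TATA box, which overlaps no other motif searched. They lie 42 to 36 bases upstream of the start.

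In the 250 bases before the start of 33469 RefSeq genes, CCAAT was present in 34%, TATAAA in 12.9%, TATATAA in 3.42% and a CArG box of this form in 8.08%. Of the 6 genes, CCAAT was also found for Lrat and Lum, and a CArG box for Lrat. The motifs were chosen with these sequences in view, and a match is a description of the letters only.

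Col1a1, the alpha 1 chain of type I collagen and a chief product of activated stellate cells, had a lower mean with phenolphthalein on all of its 3 probes, and none of them passed. Levels are log2 of the processed signal relative to the 75th percentile of the same array. On the probe that stands for the gene, A_44_P350521, replicates 1 to 3 of the corn oil group read 0.93, 0.82 and 0.90, and those of the phenolphthalein group 0.61, 0.11 and 0.50. The groups did not overlap, phenolphthalein being below, with phenolphthalein replicate 2 the lowest. The mean was 0.88 ± 0.06 for corn oil and 0.41 ± 0.26 for phenolphthalein (SD, n = 3 each), a log2 fold change of -0.48 ± 0.14 (SE, 95% interval -0.83 to -0.13), which is 0.719-fold. Over the 11434 genes tested the limma adjusted p was 0.243, and 7.04% of genes had a lower log2 fold change.

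The second probe of Col1a1, A_64_P040278, read 0.53, 0.68 and 0.87 with corn oil and 0.44, 0.09 and 0.02 with phenolphthalein. Its groups did not overlap, and its log2 fold change was -0.51 ± 0.15 (SE, limma adjusted p over all probes 0.283). The third, A_44_P238421, read 0.58, 0.59 and 0.77 with corn oil and 0.63, 0.22 and 0.29 with phenolphthalein, so here phenolphthalein replicate 1 lay within the corn oil range. Its log2 fold change was -0.27 ± 0.13 (SE, limma adjusted p 0.451). Without phenolphthalein replicate 2 the log2 fold change of Col1a1 was -0.33.

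Col1a2, the alpha 2 chain that pairs with the product of Col1a1 in type I collagen, had 2 probes whose log2 fold changes differed in size, and neither passed. The brighter one, A_43_P12783, read 3.75, 3.51 and 3.68 with corn oil and 3.92, 3.36 and 3.49 with phenolphthalein. The groups overlapped from end to end, and the highest array was phenolphthalein replicate 1. Its log2 fold change was -0.06 ± 0.16 (SE, 95% interval -0.46 to 0.34, limma adjusted p over all genes 0.891). This value turned to 0.02 with a median shift, in which each array's median takes the place of its 75th percentile, and to 0.06 without phenolphthalein replicate 2. The dimmer probe, A_44_P458851, read 0.82, 0.60 and 0.77 with corn oil and 0.61, 0.06 and 0.14 with phenolphthalein, a log2 fold change of -0.46 ± 0.17 (SE, limma adjusted p over all probes 0.342). Only phenolphthalein replicate 1 reached into the corn oil range on it.

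The distance between the Col1a2 probes hardly varied within a group. The level of A_43_P12783 minus that of A_44_P458851 was 2.93, 2.92 and 2.91 for corn oil and 3.31, 3.30 and 3.34 for phenolphthalein. Its mean was 2.92 ± 0.01 for corn oil and 3.32 ± 0.02 for phenolphthalein (SD, 3 arrays each), so the groups differed by 0.40 ± 0.05 log2 units (SE, 95% interval 0.28 to 0.52) without overlap. The test, chosen after these values were seen, took every pair of probes of 1 gene. It called 0 of 11393 pairs (0%), against 14.9% with an unadjusted p under 0.05, and the limma adjusted p of the Col1a2 pair was 0.171. Over the alternative settings the difference of the Col1a2 pair stayed between 0.37 and 0.41 and its adjusted p ran from 0.0845 to 0.376. The share of all pairs whose groups did not overlap was not counted.

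Other probes of 1 gene kept looser distances. For Col1a1, A_44_P238421 minus A_64_P040278 was 0.06, -0.09 and -0.10 with corn oil and 0.19, 0.13 and 0.27 with phenolphthalein. The difference between groups was 0.24 ± 0.07 (SE, limma adjusted p 0.244). These groups did not overlap, and here too the share of all pairs without overlap was not counted. For the other 2 pairs of Col1a1 the groups differed by 0.21 ± 0.10 and 0.03 ± 0.15 (SE) and overlapped. The value was 0.11 ± 0.08 (SE) for the pair of Pdgfrb and 0.07 ± 0.12 for that of Lrat, and the groups overlapped for both.

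**Figure D1:**
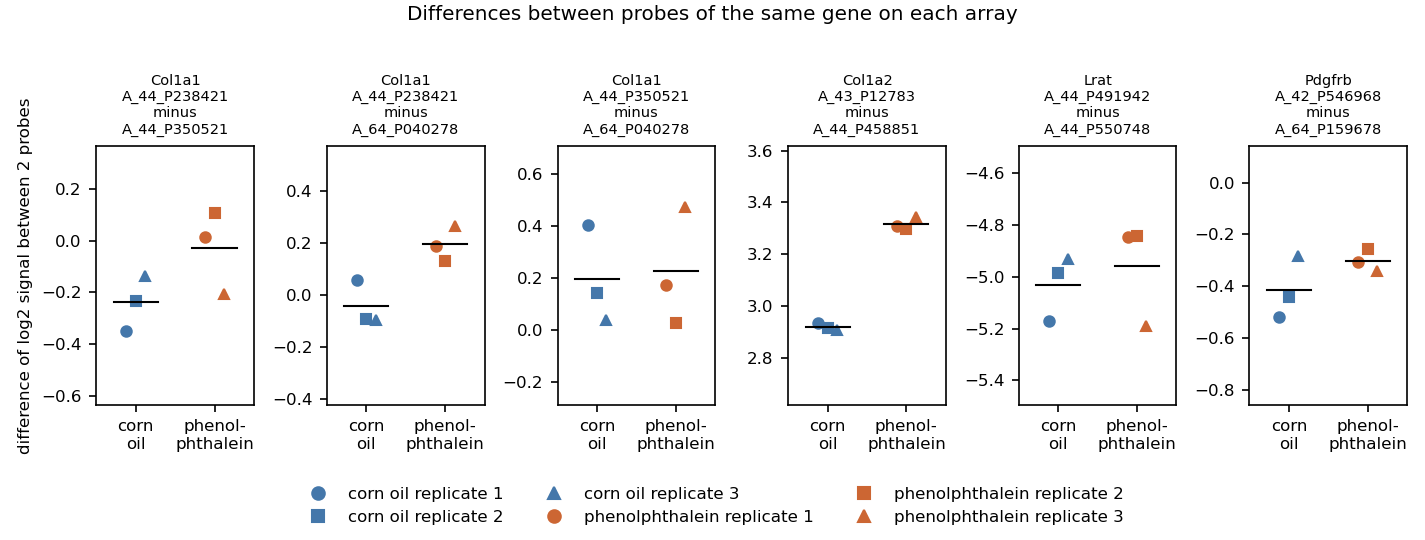
Difference in log2 signal between probes of the same gene on each array (vertical axis, each panel spans 1 log2 unit), with corn oil on the left and phenolphthalein on the right of a panel. Points are arrays and bars are group means (n = 3). The Col1a2 points lie within 2.91 to 2.93 for corn oil and 3.30 to 3.34 for phenolphthalein, and the Lrat points of both groups overlap.

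Col3a1, the chain of type III collagen, which forms the reticular fibres of the liver, had 1 probe. It read 4.19, 4.03 and 4.25 with corn oil and 4.20, 3.74 and 3.76 with phenolphthalein. Phenolphthalein replicate 1 lay among the corn oil arrays and the other two lay below them. Its log2 fold change was -0.26 ± 0.15 (SE, 95% interval -0.62 to 0.11), with a limma adjusted p of 0.454. Leaving out phenolphthalein replicate 1 gave -0.40, and the lowest size was -0.18, without phenolphthalein replicate 2.

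Dcn codes for decorin, a small leucine-rich proteoglycan that binds collagen fibrils and transforming growth factor beta. Its probe read 0.06, 0.79 and 0.37 with corn oil and 0.30, -0.48 and -0.12 with phenolphthalein. The means were 0.41 ± 0.37 for corn oil and -0.10 ± 0.39 for phenolphthalein (SD, n = 3 each), and the groups overlapped. The log2 fold change of -0.51 ± 0.26 (SE, 95% interval -1.15 to 0.13) was 0.704-fold, with a limma adjusted p of 0.41. Its value was -0.32 without corn oil replicate 2 or phenolphthalein replicate 2, and -0.71 without phenolphthalein replicate 1.

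Lum codes for lumican, a relative of decorin that also coats collagen fibrils. Its 1 probe stood well above background on 1 of the 3 corn oil arrays and 0 of the 3 phenolphthalein arrays, so it stayed out of the test. It read -6.10, -4.26 and -5.13 on the corn oil arrays, where replicate 2 was the one above background. The phenolphthalein arrays read -7.60, -7.62 and -7.06, all below the corn oil arrays. Measured means were -5.16 ± 0.92 for corn oil and -7.42 ± 0.32 for phenolphthalein (SD, 3 arrays each). Against the lowest signals called well above background on the phenolphthalein arrays, a mean of -5.46, the measured corn oil mean was 1.23-fold higher. Corn oil replicates 1 and 3 were not well above background themselves, so 1.23-fold is not a lower bound. Without corn oil replicate 2 the corn oil mean of -5.62 lay below -5.46, and no fold can be given.

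Pdgfrb, the receptor through which platelet-derived growth factor acts on stellate cells and pericytes, had overlapping groups on both of its probes. Probe A_64_P159678 read 0.43, 0.21 and -0.42 with corn oil and 0.20, 0.02 and -0.37 with phenolphthalein. Probe A_42_P546968 read -0.09, -0.23 and -0.71 with corn oil and -0.10, -0.23 and -0.71 with phenolphthalein. Replicate 3 was the lowest array of both groups on both probes. The log2 fold change of the first probe, which stands for the gene, was -0.12 ± 0.26 (SE, 95% interval -0.75 to 0.52, limma adjusted p 0.858). That of the other was -0.005 ± 0.23 (SE). Leaving out corn oil replicate 1 turned the gene's value to 0.06.

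Lrat makes the retinyl esters that fill the droplets of resting stellate cells. Its brighter probe, A_44_P550748, read 2.38, 1.90 and 2.00 with corn oil and 2.03, 1.85 and 2.34 with phenolphthalein, with 1 high array in each group. The log2 fold change was -0.02 ± 0.18 (SE, 95% interval -0.46 to 0.42, limma adjusted p 0.971), and 0.06 with a median shift. The dimmer probe, A_44_P491942, differed by 0.05 ± 0.11 on the log2 scale (SE) and was the 1 probe of the tested 14 with a higher mean.

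Des codes for desmin, an intermediate filament protein by which rodent stellate cells are often identified. It read -1.93, -2.16 and -2.42 with corn oil and -1.93, -2.53 and -2.14 with phenolphthalein. The 2 groups covered nearly the same range, and the log2 fold change was -0.03 ± 0.19 (SE, 95% interval -0.51 to 0.45, limma adjusted p 0.958). With a median shift it was 0.05 and with quantile normalization 0.006.

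Acta2, the smooth muscle actin of activated stellate cells and vessel walls, had the narrowest interval of the 9 genes. It read -1.46, -1.50 and -1.45 with corn oil and -1.47, -1.41 and -1.70 with phenolphthalein. The corn oil arrays had an SD of 0.03 (n = 3), and phenolphthalein replicate 3 alone stood lower. The log2 fold change was -0.06 ± 0.10 (SE, 95% interval -0.30 to 0.18), which spans 0.814-fold to 1.13-fold, with a limma adjusted p of 0.806. The sign turned with a median shift, to 0.02, and without phenolphthalein replicate 3, to 0.03.

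Timp1, an inhibitor of matrix metalloproteinases that acute liver injury raises, read 1.45, 1.38 and 1.36 with corn oil and 1.34, 0.88 and 1.42 with phenolphthalein. Phenolphthalein replicate 2 stood apart from the other 5 arrays. This gave a log2 fold change of -0.18 ± 0.15 (SE, 95% interval -0.56 to 0.20, limma adjusted p 0.608). Without that array it was -0.01.

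**Figure D2:**
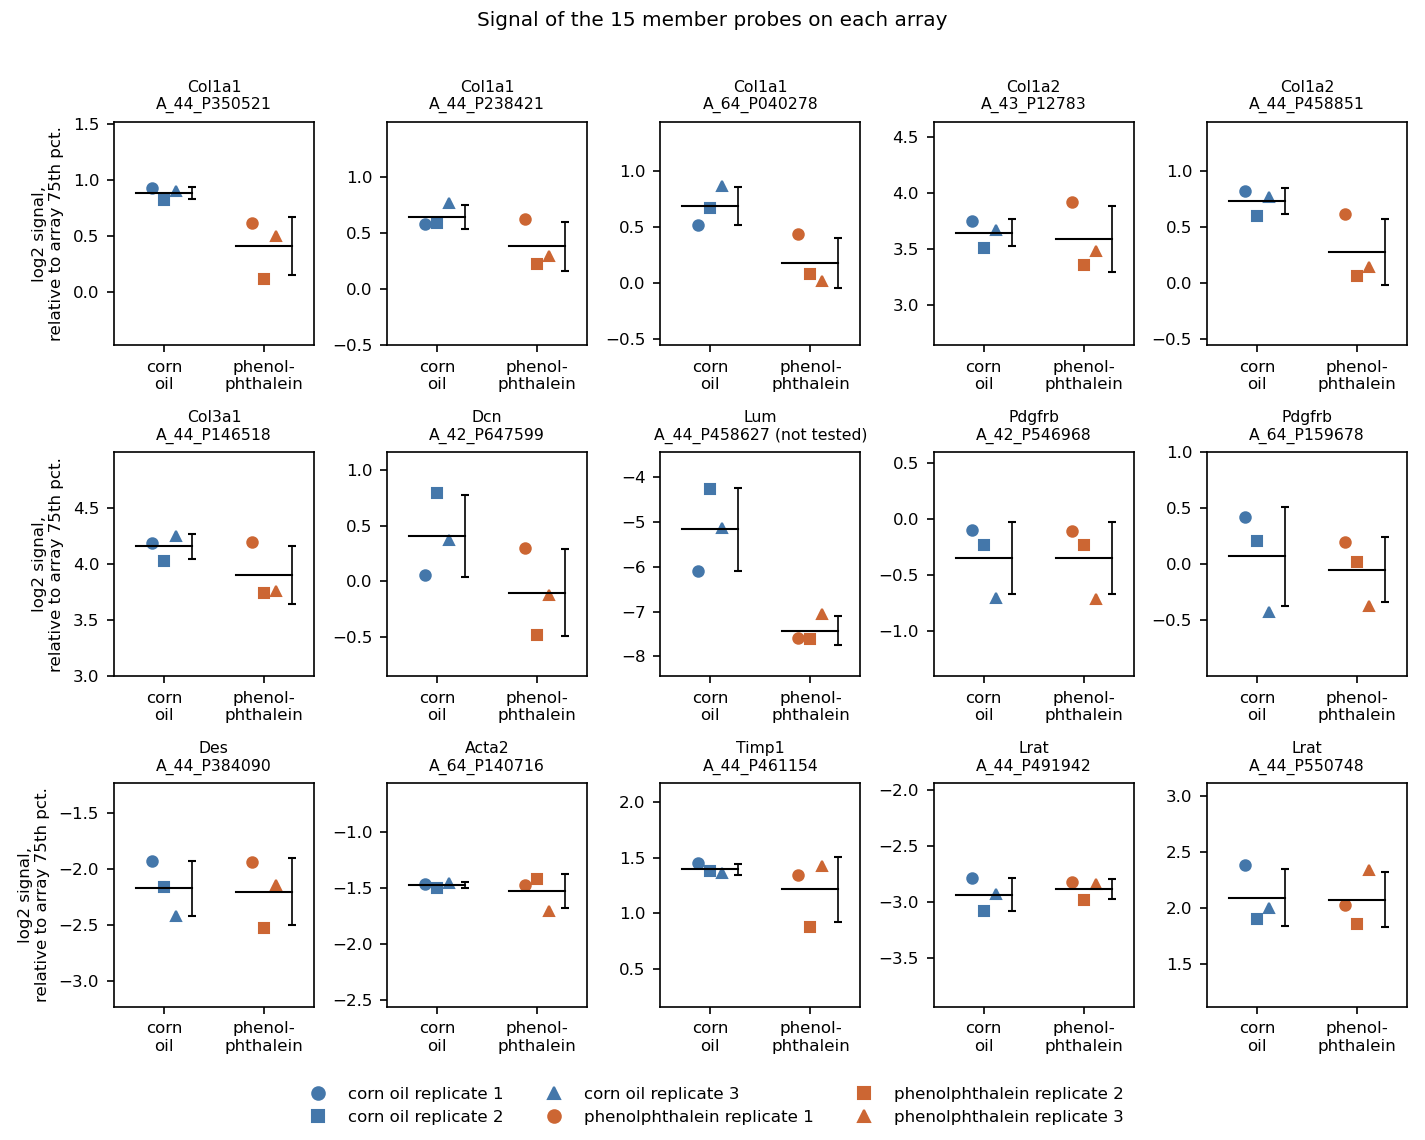
Log2 signal relative to the array's 75th percentile (vertical axis) of the 15 probes on each array, corn oil on the left and phenolphthalein on the right of a panel. Points are arrays, horizontal bars group means and whiskers the SD (n = 3). Panels span 2 log2 units, and 5 for Lum, which was not tested. Phenolphthalein replicate 2 is the lowest of the 6 arrays for 9 of the 14 tested probes.

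Across the 10 genes, 0 of 9 tested genes passed at an adjusted p under 0.05 in limma, against 0.0612% of all 11434 genes. At an unadjusted p under 0.05 it was 1 of 9, Col1a1, which was lower, against 15.3% of all genes in either direction and 8.11% lower. Without phenolphthalein replicate 1 this count was 3, with Col3a1 and Dcn added, and with normexp background correction it was 2, with Timp1 added. Without the filter on dim probes, which let Lum in, it was also 2. Col1a1 was also the 1 gene of 9 whose phenolphthalein arrays all lay below the corn oil arrays, as did those of 11% of all genes.

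By probe, 0 of 14 tested probes passed in limma, against 0.0482% of the 39411 tested (0.00254% lower, 0.0457% higher). At an unadjusted p under 0.05 there were 3, all lower, namely A_44_P350521 and A_64_P040278 of Col1a1 and A_44_P458851 of Col1a2. Among all probes 13.2% were under that p, 6.37% lower and 6.84% higher. The set's count was 6 without phenolphthalein replicate 1, against 4424 of all 39411 probes, and 1 without phenolphthalein replicate 2, against 3833. It was 2 without corn oil replicate 1 (4352 of all probes), corn oil replicate 3 (4316) or phenolphthalein replicate 3 (4824), and with a median shift (6796). With normexp it was 4, against 6101 of all probes. Without the filter on dim probes, which let Lum in, it was also 4, against 5708 of 61657. Phenolphthalein lay below corn oil without overlap on 2 of 14 probes, both of Col1a1, against 9.24% of all probes. The mean was lower on 13 of 14, against 46.6%.

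The median log2 fold change was -0.12 over the 9 genes and 0.01 over all genes, and -0.15 over the 14 probes and 0.02 over all probes. With a median shift it was -0.04 over the 9 genes and 0.09 over all genes. Leaving out corn oil replicate 1 gave the 9 genes a median of -0.05, leaving out corn oil replicate 3 gave -0.20, and leaving out phenolphthalein replicate 1 gave -0.24.

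**Figure D3:**
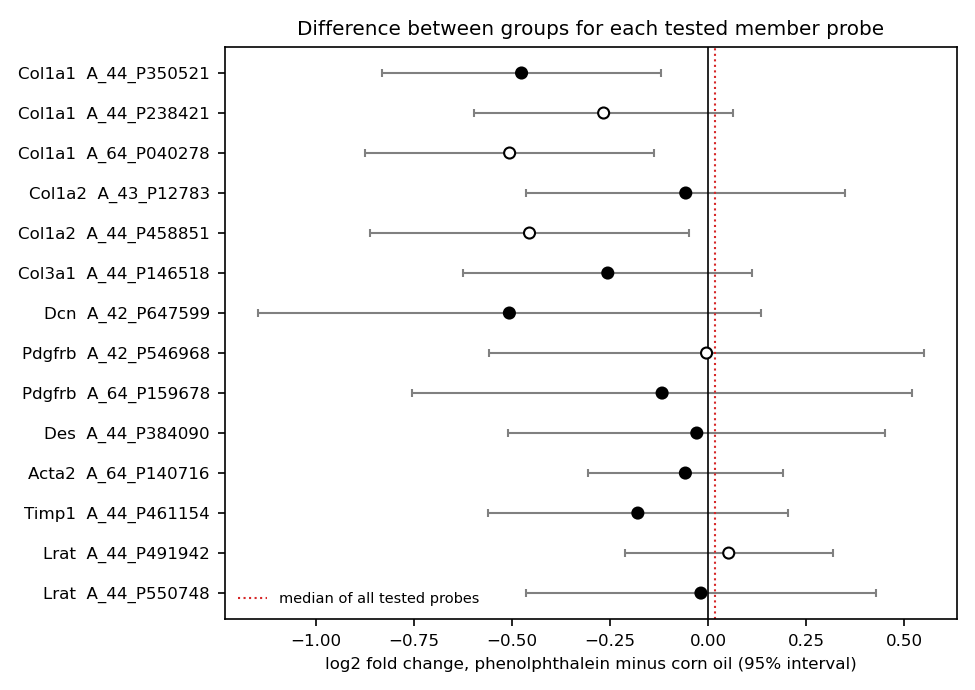
Log2 fold change, phenolphthalein minus corn oil, with its 95% interval (horizontal axis) for the 14 tested probes. Filled points stand for their gene, open points are its other probes, and the dotted line is the median of all tested probes. The intervals of A_44_P350521, A_64_P040278 and A_44_P458851 lie below 0 and the other 11 include it.

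The arrays differed within the phenolphthalein group. Phenolphthalein replicate 1 was the lowest of its group for 0 of 14 probes, replicate 2 for 10 and replicate 3 for 4. The median deviation of the 9 genes from their mean over all 6 arrays was 0.16, 0.02 and 0.05 for corn oil and 0.14, -0.29 and -0.15 for phenolphthalein. Phenolphthalein replicate 1 lay among the corn oil arrays, and replicates 2 and 3 lay below them.

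In wider lists of matrix and stellate genes, 0 genes passed limma's adjusted threshold in any list. Of 7 tested fibrillar collagens 6 had a lower mean and 1 a higher one, and the median log2 fold change was -0.26, or -0.16 without phenolphthalein replicate 2. Besides Col1a1, the smallest p-values were those of Col11a2, a cartilage collagen, at 0.54 ± 0.28 (SE), and of Col5a1, a chain that helps to start type I fibrils, at -0.28 ± 0.15. Of 7 basement membrane and other collagens 5 had a lower mean, with a median of -0.13. Without 1 array this median ran from -0.28, without phenolphthalein replicate 1, to 0.06, without phenolphthalein replicate 3. The log2 fold change was -0.53 ± 0.15 (SE) for Col23a1, a transmembrane collagen, and Col4a4 and Col14a1, which binds the surface of fibrils, had 0.60 ± 0.31 and -0.19 ± 0.17.

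Of 31 other matrix proteins and proteoglycans 23 had a lower mean and 8 a higher one, with a median of -0.19. The median was -0.10 without corn oil replicate 3, -0.13 without phenolphthalein replicate 3 and -0.11 with a median shift. Unadjusted, 4 were lower and 2 higher at a p under 0.05, against 8.11% and 7.16% of all genes. Fbln5 and Eln, which take part in elastic fibres, had log2 fold changes of -0.52 ± 0.14 and -0.55 ± 0.16 (SE). Phenolphthalein arrays lay below corn oil arrays for both. Of the 31, 4 had phenolphthalein below corn oil without overlap and 2 above, against 11% and 12.2% of all genes. Spp1, osteopontin, went the other way at 0.92 ± 0.21 (SE, limma adjusted p 0.194), and it is also a bile duct marker.

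Genes that process and crosslink collagen had a lower mean in 13 of 18 and a median of -0.19, or -0.11 with a median shift. Serpinh1, the collagen-specific chaperone, differed by -0.27 ± 0.10 (log2, SE), Tgm2, a crosslinking transglutaminase, by -0.29 ± 0.10, and P3h1, a collagen prolyl hydroxylase, by 0.54 ± 0.18. Serpinh1 read 1.23, 1.17 and 1.34 with corn oil and 1.07, 0.82 and 1.02 with phenolphthalein, without overlap, and its limma adjusted p was 0.289. Of the 18, 4 had phenolphthalein below corn oil without overlap and 1 above, against 11% and 12.2% of all genes. Matrix proteases and inhibitors had a lower mean in 13 of 22 and a median of -0.16. That median was -0.07 without corn oil replicate 1, and -0.27, -0.03 and -0.06 without phenolphthalein replicates 1, 2 and 3 in turn. With a median shift it came to -0.08. Plau, the urokinase plasminogen activator, stood at -0.80 ± 0.17 (SE, limma adjusted p 0.172) and Adamts9 at -0.36 ± 0.15. Mmp12, macrophage elastase, stood well above background on all 3 arrays of the corn oil group but on 1 of 3 of the phenolphthalein group, so it was tested through the corn oil group and the size of its difference is not given. It remains among the 13 lower means and in the medians of its list.

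Among ligands, receptors and other genes of transforming growth factor beta and PDGF signalling, 21 of 26 had a lower mean. Of the 26, 3 were lower at an unadjusted limma p under 0.05, against 8.11% of all genes, and 5 had phenolphthalein below corn oil without overlap, against 11%. The median log2 fold change was -0.13. It was -0.08 without corn oil replicate 3, -0.07 without phenolphthalein replicate 2 and -0.05 with a median shift. Tgfb1, the main profibrotic ligand, read -2.16, -2.33 and -2.14 with corn oil and -2.73, -3.39 and -2.91 with phenolphthalein. Its groups did not overlap, and its log2 fold change of -0.80 ± 0.18 (SE, 95% interval -1.24 to -0.36) had a limma adjusted p of 0.178. Ltbp2, a latent TGF-beta binding protein of elastic fibres, had one of -0.78 ± 0.24 (SE) and Tgfbi, a matrix protein induced by that ligand, one of -0.24 ± 0.08.

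Retinoid handling and quiescent stellate genes had a lower mean in 20 of 33 and a median of -0.07, which turned to 0.01 with a median shift. Without 1 array it ran from -0.18, without phenolphthalein replicate 1, to -0.006, without phenolphthalein replicate 2. Rxrg, a retinoid X receptor, had a log2 fold change of -0.46 ± 0.12 (SE), Nes, nestin, one of -0.26 ± 0.09, and Rgs5, a pericyte gene that is also among the stellate markers, one of 0.65 ± 0.19. Contractile and smooth muscle genes had a lower mean in 13 of 16 and a median of -0.10. The values were -0.16 without phenolphthalein replicate 2, -0.05 without phenolphthalein replicate 3 and -0.02 with a median shift. Flna, an actin crosslinker, had a log2 difference of -0.40 ± 0.11 (SE), Myl9, the smooth muscle myosin light chain, one of -0.33 ± 0.12 and Myocd, the coactivator of serum response factor, one of -0.39 ± 0.14. Portal fibroblast genes had a lower mean in 4 of 9 and a median of 0.01, which ran from -0.28, without corn oil replicate 2, to 0.08, without phenolphthalein replicate 3. Upk1b, among the 5 with a higher mean, owes this to corn oil replicate 2, at -7.71. Corn oil replicates 1 and 3 read -1.65 and -1.86, above the phenolphthalein arrays at -1.89, -2.73 and -1.99. Besides Eln, the smallest p-values in this list were those of Cd34 and of Mfap4, the latter at -0.24 ± 0.10 (SE). Cd34 stood well above background on all 3 arrays of the corn oil group but on 1 of 3 of the phenolphthalein group, and the size of its difference is likewise not given. It remains among the 4 lower means and in the medians of this list.

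**Figure D4:**
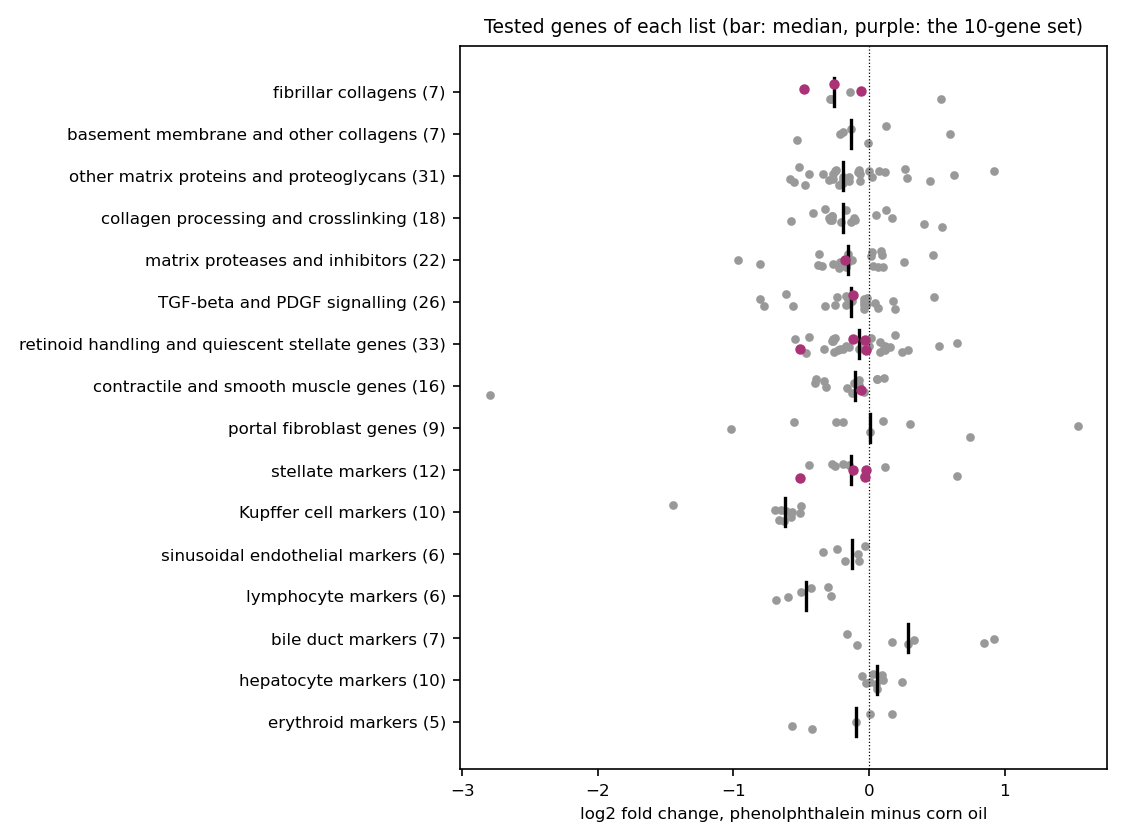
Log2 fold change, phenolphthalein minus corn oil (horizontal axis), of every tested gene of each list, with the number tested in brackets. Points are genes, purple points belong to the set of 10 genes, and bars are medians. Mmp12 and Cd34, tested through the corn oil group, are among the points. The medians lie at -0.26 for fibrillar collagens and -0.62 for Kupffer cell markers. The lone point near the left edge is Vcl, at -2.80 ± 2.22 (SE), which read -7.65 on phenolphthalein replicate 1 and 0.35 to 0.79 on the other 5 arrays. The rightmost is Upk1b, at 1.54 ± 1.65 (SE), which read -7.71 on corn oil replicate 2 and -2.73 to -1.65 on the other 5.

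The stellate marker list, which shares 5 genes with the set, had 13 of its 14 genes on the array and 12 tested. Its mean was lower for 10 and higher for 2, with a median of -0.13 that was -0.22 without phenolphthalein replicate 1, 0.006 without phenolphthalein replicate 2 and -0.05 with a median shift, and Lum was the 1 gene on the array that was not tested. The summed level of its tested genes, on the linear scale in units of the array's 75th percentile, was 102 to 129 on corn oil arrays and 76.7 to 134 on phenolphthalein arrays, so the ranges overlapped. Such a sum mostly reflects the brightest genes of a list. Besides Rgs5 and Dcn, the smallest p was that of Ngfr, at -0.44 ± 0.20 (SE).

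Markers of other liver cells were summarised in the same way. These lists were chosen with earlier results of these data known, so their counts are descriptions only. All 10 Kupffer cell markers, from the phagocytes of the sinusoids, had a lower mean with phenolphthalein, with a median log2 fold change of -0.62. Limma called 0 of the 10 over all genes, against 0.0612% of all genes. It put 10 of 10 lower at an unadjusted p under 0.05, against 8.11% of all genes, and 7 of 10 had phenolphthalein below corn oil without overlap, against 11%. Their summed level was 184 to 261 on corn oil arrays and 136 to 178 on phenolphthalein arrays. The 6 tested lymphocyte markers had a lower mean, with a median of -0.46 and a summed level of 3.71 to 4.22 against 2.52 to 2.99. The 7 bile duct markers had a median of 0.29, or 0.12 without corn oil replicate 2, with 5 higher means and a summed level of 2.08 to 2.31 against 2.55 to 2.64. No marker of these 3 lists passed over all genes in limma.

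The 6 tested sinusoidal endothelial markers had a lower mean in 6 of 6 and a median of -0.13, or -0.05 with a median shift, with a summed level of 69.5 to 73.0 against 62.6 to 69.6. The 10 hepatocyte markers had a median of 0.06, which was 0.02 without corn oil replicate 2, 0.10 without corn oil replicate 3 and 0.14 with a median shift, and a summed level of 5744 to 6263 against 6103 to 6316. The 5 erythroid markers had a median of -0.10, which ran from -0.20, without corn oil replicate 1, to 0.07, without corn oil replicate 3. On phenolphthalein replicates 1 to 3 the Kupffer list deviated by -0.48, -0.43 and -0.03, and the set of 10 genes by 0.14, -0.29 and -0.15. The part of any of these cells in the values of Col1a1, Dcn or Tgfb1 was not tested.

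**Figure D5:**
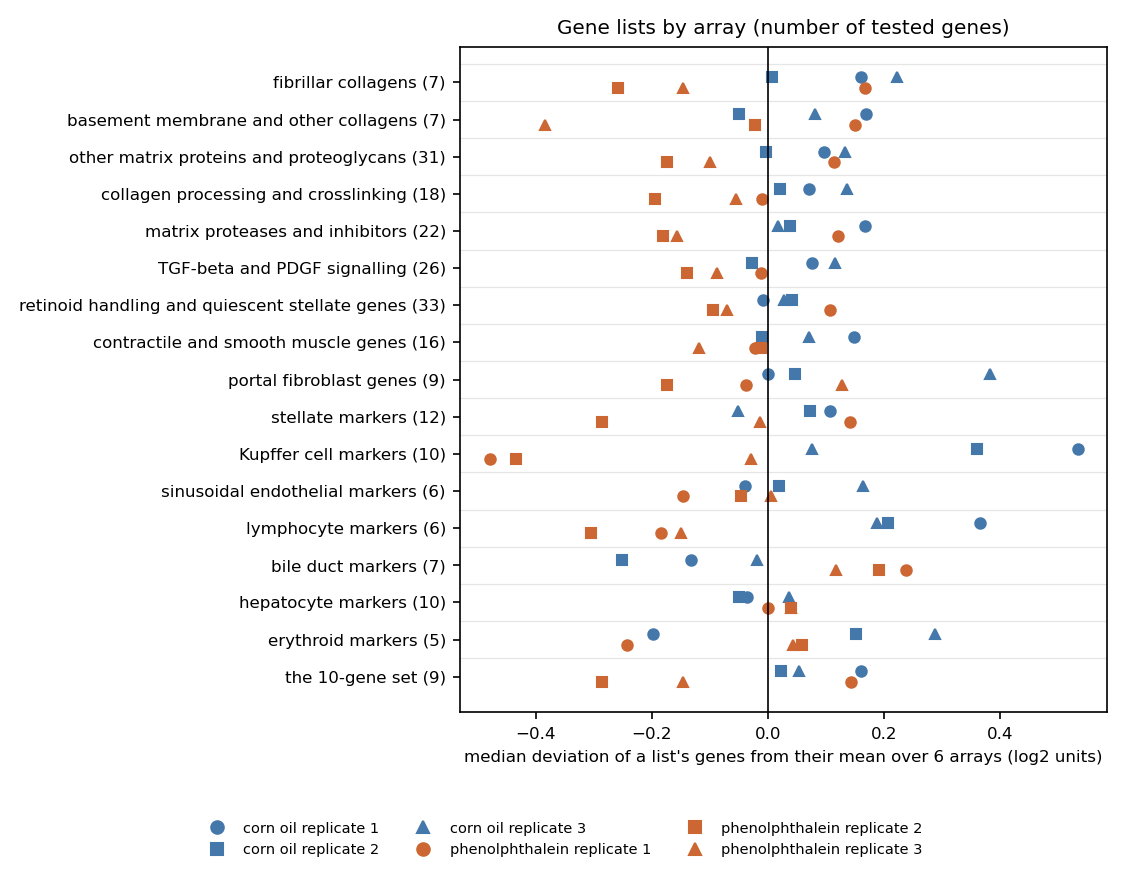
Median deviation of the tested genes of each list from their own mean over the 6 arrays, in log2 units (horizontal axis), with 1 point per array. Colours are groups and marker shapes replicate numbers. For the set of 10 genes phenolphthalein replicate 1 lies at 0.14, among the corn oil arrays, and replicates 2 and 3 at -0.29 and -0.15. For Kupffer cell markers the 3 phenolphthalein arrays lie at -0.48, -0.43 and -0.03.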

How the data were processed

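The 6 scanner files, 3 per group, hold spot intensity. They were written by Agilent's Feature Extraction (10.7.1.1 per the file headers, 10.7 in the submitters' processing notes). The deposited processed signal is an intensity already corrected for background on its own array, with no step between arrays. The value table that the authors deposited holds this intensity on a linear scale after division by a single factor for each array, constant to within 0.0496%.

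Levels are log2 of the processed signal minus the array's 75th percentile (551 to 636) over spots that are not controls. Spots marked as outliers counted as missing, and a probe was tested if well above background on 3 or more of 6 arrays. Accessions were matched to RefSeq (GRCr8, names only), giving 27460 probes a single gene, and the brightest probe stood for a gene. Limma 3.58.1 (R 4.3.3) was fitted with lmFit and eBayes as phenolphthalein minus corn oil. Adjustment was by Benjamini-Hochberg over all genes or all probes, at 0.05. The scripts were tested on simulated data.

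All 10 genes are named, as are the 3 of smallest p in each wider matrix or stellate list; Vcl and Upk1b were named after their values were seen. The genes and lists were chosen with earlier results of these data known. Probe sequences were not used here, nor were mean spot signals, so normexp ran on median spot signals.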

Additional observations from a re-analysis of the deposited data

How the results depend on the processing

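The 9 tested genes were recomputed under 17 alternatives each, and 0 of the 153 values passed. The sign held in 136 and turned in 17. Col1a1, Col3a1, Dcn and Timp1 kept theirs in all 17. Some of these alternatives could not turn a sign of these genes. Other filters on dim probes, another prior, keeping outlier-marked spots and masking array columns with low spots left every log2 fold change unchanged. The replicate block did so too. The deposited value table, with a single factor for each array, left them nearly unchanged. Normexp with an offset of 50 turned Lrat to 0.038 and Pdgfrb to 0.0012, and gave 1 called probe pair in place of 0. Quantile normalization turned Des to 0.0063. A median shift turned Acta2 to 0.020, Col1a2 to 0.021, Des to 0.049 and Lrat to 0.060. The mean of a gene's probes turned Lrat to 0.017. Without 1 array, log2 fold changes ran from -0.11 to 0.028 for Acta2, -0.22 to 0.057 for Col1a2, -0.16 to 0.13 for Des, -0.15 to 0.13 for Lrat and -0.36 to 0.060 for Pdgfrb, and the counts over all genes and probes from 0 to 6 and 0 to 5, in place of 7 and 19. Without the filter on dim probes limma called 0 of 61657 probes, 5708 having an unadjusted p under 0.05. With the replicate block limma called 0 genes and 0 probes, 1495 and 4507 having an unadjusted p under 0.05. Same-numbered arrays deviated together by correlations of -0.02, 0.02 and -0.003 only. No slide held both groups, so the slide could not be fitted as a block. Signals near background limit Lum.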
